A study of Mus musculus with 6 samples.

Results

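The 9 genes described here encode receptors for secreted neurotrophic factors, neuronal adhesion proteins and a neurotrophic factor. They are Ngfr, Ntrk2, Ntrk3, Gfra1, Gfra2, Lingo1, Lingo3, Ntng2 and Ndnf, and all 9 were found by symbol among the 23420 genes counted in 6 RNA sequencing libraries of the mouse lens transition zone. At the transition zone, lens epithelial cells stop dividing and turn into fibre cells. The genes were chosen by their counts in these same libraries, because Ngfr, Gfra2, Lingo3 and Ntng2 were lower and Ndnf was higher in one group. Their difference between the groups is therefore given as a description without a test.

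All embryos were at E14.5, of mixed strain background, and carried Le-Cre, a transgene in which regulatory sequence of Pax6 drives Cre recombinase in the ectoderm that forms the lens. The 3 control libraries, titled wild type, came from embryos with Le-Cre alone. The 3 libraries labelled mutant came from embryos that were also Etv4-/- in every tissue, together with Etv5 fl/fl and Etv1 fl/fl, which Cre recombines where it is made. Etv1, Etv4 and Etv5 form the Pea3 group of ETS factors, which relay fibroblast growth factor signals to the genome. The labels do not give the number of embryos in a library. The spread between libraries may thus be partly technical.

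Neurotrophins signal through kinases of the Trk family, such as TrkB (encoded by Ntrk2) and TrkC (Ntrk3), and through p75, the death domain receptor encoded by Ngfr. The p75 receptor pairs with sortilin to bind neurotrophin precursors, and with LINGO1 and the Nogo receptor to restrain axon growth. Ligands of the GDNF family bind the membrane-anchored co-receptors encoded by Gfra1 and Gfra2, which hand the signal to the kinase RET or to the adhesion molecule NCAM. Netrin-G2, encoded by Ntng2, is a membrane-anchored relative of the netrins that binds the leucine-rich repeat protein NGL-2 on a facing cell. These systems are best known from neurons and their support cells. The lens itself is not innervated.

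Library totals lay between 13364742 and 17301168 counts, so that 1 count stood for between 0.0508 and 0.0825 CPM (normalised counts scaled to the effective library size). Etv1 and Etv5 went from means of 57.4 CPM ± 12.7 and 196.8 CPM ± 42.3 among controls to 26.5 CPM ± 4.25 and 103.5 CPM ± 18.0 among mutants, and Etv4 stood at 2.75 CPM ± 0.562 and 4.28 CPM ± 0.611 (SD, n = 3 each). Of these, Etv1 fell (edgeR adjusted p = 0.0319), while Etv5 and Etv4 did not pass (edgeR adjusted p = 0.0503 and 0.427). Whole-gene counts include exons that a deletion may spare, so these values do not check the labels. Counts of Xist and Ddx3y were 711 and 2 in mutant library 1, while the other 5 libraries had at most 3 of the former and at least 521 of the latter. It thus differs from them in the sex of its tissue.

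Sequence before the start of transcription was matched by symbol for 6 of the 9 genes. It is shown for Ngfr, Lingo3 and Ntng2, which were lower together in the mutant libraries, and for Ntrk2, which was higher. ETS factors bind around a GGAA core, so each GGAA, on either strand (read as TTCC on the other), is in capitals. Each run is the 250 bases before a start in RefSeq on build GRCm38.p6, 5′ to 3′ along the gene. The runs lie at chr11:95587699-95587948 (Ngfr, minus strand), chr10:80844040-80844289 (Lingo3, minus strand), chr2:29248100-29248349 (Ntng2, minus strand) and chr13:58806319-58806568 (Ntrk2, plus strand).
Ngfr: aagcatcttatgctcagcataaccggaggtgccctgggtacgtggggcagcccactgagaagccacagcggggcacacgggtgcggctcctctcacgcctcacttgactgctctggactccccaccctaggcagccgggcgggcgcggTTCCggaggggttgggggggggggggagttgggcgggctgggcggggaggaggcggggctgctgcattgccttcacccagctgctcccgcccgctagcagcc
Lingo3: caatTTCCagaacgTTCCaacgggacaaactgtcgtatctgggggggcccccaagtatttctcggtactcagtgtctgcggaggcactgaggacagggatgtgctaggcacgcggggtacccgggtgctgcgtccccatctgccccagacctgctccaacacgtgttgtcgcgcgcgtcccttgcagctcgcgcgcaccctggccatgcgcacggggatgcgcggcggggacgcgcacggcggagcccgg
Ntng2: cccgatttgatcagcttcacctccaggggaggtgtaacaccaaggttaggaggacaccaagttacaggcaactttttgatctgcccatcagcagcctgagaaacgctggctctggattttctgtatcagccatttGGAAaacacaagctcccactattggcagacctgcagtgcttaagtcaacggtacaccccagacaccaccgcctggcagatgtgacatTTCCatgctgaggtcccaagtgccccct
Ntrk2: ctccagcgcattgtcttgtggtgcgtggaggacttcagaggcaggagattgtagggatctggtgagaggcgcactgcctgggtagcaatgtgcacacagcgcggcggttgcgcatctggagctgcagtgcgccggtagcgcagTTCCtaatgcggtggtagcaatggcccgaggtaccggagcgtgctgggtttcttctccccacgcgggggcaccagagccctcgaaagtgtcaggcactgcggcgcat

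The cores were few in these windows. Ngfr and Ntrk2 held 1 each, 102 and 107 bases before the start, and the Lingo3 and Ntng2 windows printed here held 2 each. Lingo3 has a second, partly overlapping window, at chr10:80843799-80844048, which held 2 more, 88 and 64 bases before its own start. Of all 32851 such windows, 93.4% held at least 1 core, with a median of 3, so holding one does not set these genes apart. The longer ETS motif CCGGAAGT, which contains GGAA and was searched on both strands, was in none of the 8 windows found for the 6 genes and in 2.88% of all windows. The Pea3 element AGGAAG, which also contains GGAA, was in 1 of the 8 windows, that of Lingo1, 159 bases before its start, and in 29.5% of all windows. GC content was 70.4% for Ngfr, 66.8% for Lingo3, 52.4% for Ntng2 and 62.8% for Ntrk2, beside a median of 52.4% over all windows. The windows do not cover distant enhancers, and binding was not measured.

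Of the receptors for neurotrophins, the p75 gene Ngfr was lower in all mutant libraries. Control libraries 1, 2 and 3 held 147, 181 and 277 of its counts, and mutant libraries 1, 2 and 3 held 8, 9 and 10. Scaled to library size these were 11.0, 11.0 and 15.4 CPM against 0.406, 0.742 and 0.545 CPM. The lowest control library thus stood far above the highest mutant library, and the mutant libraries kept a small but countable level. The log2 fold change of Ngfr was -4.48 ± 0.37 (SE; 95% interval -5.32 to -3.64), which is 22.3-fold lower. In the 13 alternative fits it lay between -4.69 and -4.28.

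Ntrk2, which encodes the BDNF receptor TrkB, stood on the other side. It had 124, 55 and 53 counts in control and 581, 740 and 367 in mutant libraries, or 9.27, 3.34 and 2.94 CPM against 29.5, 61.0 and 20.0 CPM. The groups did not overlap, but both were spread, with control library 1 and mutant library 2 the highest of their groups. The log2 fold change was 2.84 ± 0.58 (SE; 95% interval 1.49 to 4.19). Counts per gene do not separate the full-length kinase from the truncated forms of TrkB that lack it. Ntrk3, which encodes the neurotrophin-3 receptor TrkC, was close to the limit of detection, with 3, 2 and 0 counts in control and 12, 5 and 5 in mutant libraries. It did not pass the filter on low counts and has no fitted value.

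Of the co-receptors for GDNF ligands, Gfra2, which encodes the preferred co-receptor of neurturin, was lower in all mutant libraries. Its levels of 4.63, 4.62 and 4.93 CPM in control libraries were nearly equal to each other, and mutant libraries had 0.406, 0.165 and 0.218 CPM, from 8, 2 and 4 counts. The log2 fold change was -4.09 ± 0.51 (SE; 95% interval -5.26 to -2.91), or 16.97-fold lower. Gfra1, which encodes the preferred co-receptor of GDNF, had 12, 21 and 2 counts in control and 24, 4 and 0 in mutant libraries. Its groups overlapped, and the 95% interval of its log2 fold change, -3.31 to 2.29, leaves even large differences in either direction undetected at this depth. In mutant library 3 the count of 0 allows up to 0.164 CPM (3 counts).

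The Lingo genes encode membrane proteins with leucine-rich repeats and an immunoglobulin domain. Lingo3 had 455, 453 and 596 counts in control and 55, 52 and 60 in mutant libraries, or 34.0, 27.5 and 33.0 CPM against 2.79, 4.29 and 3.27 CPM. Both groups were narrow and lay far apart. The log2 fold change was -3.20 ± 0.24 (SE; 95% interval -3.74 to -2.66), which is 9.19-fold lower. Lingo1, the p75 partner, had 1.79, 2.61 and 3.77 CPM in control and 4.47, 6.68 and 4.85 CPM in mutant libraries. The groups did not overlap, although the highest control library came near the lowest mutant library, and the log2 fold change was 0.96 ± 0.39 (SE; 95% interval 0.06 to 1.85). The 2 tested Lingo genes among the members thus lay on opposite sides of 0. Lingo1 did not pass an adjusted p of 0.05 in the main fit or in any of the 13 alternative fits.

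Ntng2, the netrin-G2 gene, had 26, 118 and 199 counts in control and 1, 3 and 4 in mutant libraries. These were 1.94, 7.17 and 11.0 CPM against 0.0508, 0.247 and 0.218 CPM. The groups did not overlap, but control library 1 was far below the other controls. The log2 fold change was -5.30 ± 0.83 (SE; 95% interval -7.19 to -3.41). The annotated transcript 6530402F18Rik overlaps Ntng2, and the library kit does not mark strand, so the counts of both may be mixed. That transcript had 3.59, 4.62 and 6.54 CPM in control and 3.25, 2.23 and 1.09 CPM in mutant libraries, which is -1.17 ± 0.48 as a log2 fold change (SE; edgeR adjusted p = 0.2798).

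Ndnf encodes a secreted protein with fibronectin type III domains that was named for supporting neurons in culture. It had 7, 8 and 35 counts in control and 1968, 1522 and 2011 in mutant libraries, or 0.523, 0.486 and 1.94 CPM against 99.9, 125.5 and 109.6 CPM. All mutant libraries were more than an order of magnitude above any control library, and control library 3 was the highest control. The log2 fold change was 6.76 ± 0.45 (SE; 95% interval 5.71 to 7.81), or 108.5-fold higher. Without control library 3 it was 7.77.

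**Figure D1:**
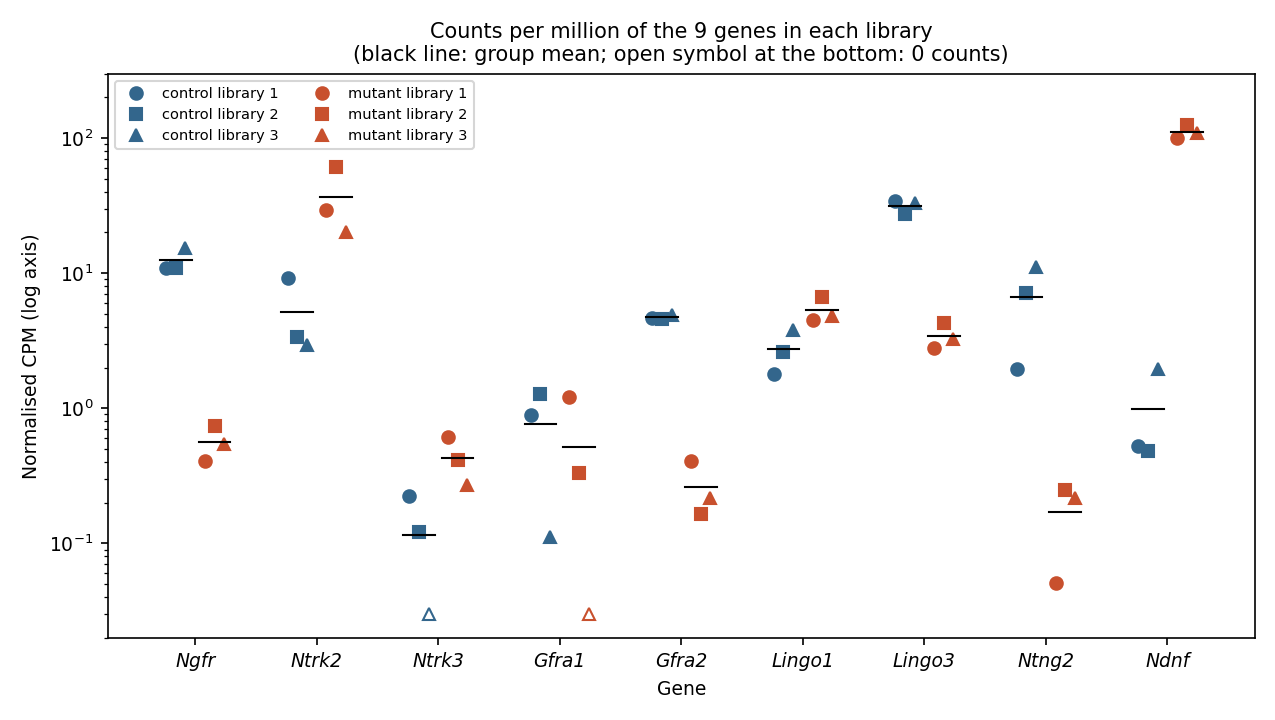
Normalised CPM of the 9 genes in each of the 6 libraries on a log axis, with control libraries in blue, mutant libraries in orange and a black line at each group mean. Ngfr, Gfra2, Lingo3 and Ntng2 lie lower and Ndnf and Ntrk2 higher in all 3 mutant libraries, while the groups of Gfra1 overlap.

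Of the 9 genes, 8 passed the filter on low counts. Of these 8, 4 were lower and 1 higher at an adjusted p under 0.05 in edgeR, where 1.08% of all 12257 tested genes were lower and 1.14% higher. Groups did not overlap for 7 of the 8, 4 lower and 3 higher, while 11.3% of all tested genes were lower and 11.4% higher without overlap. As the same contrast chose the genes, nothing is read from either count. Ntng2 no longer passed when control library 2 or 3 or mutant library 1 or 3 was left out, with log2 fold changes from -5.59 to -4.73, and Ntrk2 passed only in DESeq2, in limma voom and without control library 1, at 2.83, 2.95 and 3.54. In the authors' deposited table, log2 fold changes were -4.20 for Ngfr, 2.59 for Ntrk2, -3.61 for Gfra2, -3.12 for Lingo3, -4.27 for Ntng2 and 6.44 for Ndnf, of the same sign as here and smaller in size.

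Levels of different genes were set side by side only after division by the length of their annotated exons (GENCODE M21, all transcripts of a gene joined). On this scale of CPM per kilobase, Lingo3 was the highest of the 9 in control libraries at 8.86 ± 0.984 (SD, n = 3), followed by Ngfr at 3.61 ± 0.731. Ntng2, at 1.68 ± 1.14, and Gfra2, at 1.34 ± 0.0503, came next and did not differ beyond their spread, and the other 5 genes lay at 0.578 or below. In mutant libraries Ndnf led at 11.0 ± 1.28, followed by Ntrk2 at 1.91 ± 1.11, Lingo1 at 1.13 ± 0.251 and Lingo3 at 0.969 ± 0.215, and these last 3 did not differ beyond their spread. The order of the genes thus differed between the groups. Lingo3, Ngfr, Ntng2, Gfra2 and Ndnf were chosen by their difference between these groups, so nothing is read from this. Ntrk2 and Ntrk3 have long joined exons, which lowers their values on this scale, and the annotation behind the counts is not given in the sources used here.

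Libraries differed within groups in a way that the 9 genes met unequally. The epithelial marker Foxe3, a transcription factor gene, had 51.2, 214.0 and 282.8 CPM in control and 152.1, 39.7 and 155.7 CPM in mutant libraries, and Cdh1, the E-cadherin gene, had 38.3, 146.5 and 235.1 CPM and 131.4, 70.3 and 136.1 CPM. Crystallins, the structural proteins of fibre cells, took 37.6%, 30.2% and 21.8% of counts in control and 21.7%, 32.2% and 19.5% in mutant libraries. Control library 1 and mutant library 2 had the most crystallin RNA of their groups, and 6 of the 7 epithelial markers were lowest there. The exception was Six3, which was lowest in control library 3 and mutant library 3. Ntrk2 was highest of its groups in control library 1 and mutant library 2, and Ntng2 in the controls was lowest in control library 1. Among mutant libraries 1, 2 and 3, with 1, 3 and 4 counts, Ntng2 was instead highest in mutant library 2, at 0.247 CPM. Ngfr, Gfra2 and Lingo3 varied less among the controls than Ntng2. Between the groups, none of the 7 epithelial markers passed in edgeR, 5 were negative and 2 positive, and 1 had an unadjusted p under 0.05. That one was Sox2, at 8.12 CPM ± 1.08 in controls and 2.10 CPM ± 1.60 in mutants (SD, n = 3 each; edgeR adjusted p = 0.124), which DESeq2 and limma voom called lower. Of the 9 fibre markers, all lay below 0 (median -0.86 on the log2 scale), and 6 had an unadjusted p under 0.05. Among these, edgeR called Bfsp2, a gene of the beaded filament of fibre cells, which fell from 422.2 CPM ± 193.4 to 14.45 CPM ± 7.30 (SD, n = 3 each; edgeR adjusted p = 0.00464). DESeq2 and limma voom also called its partner gene Bfsp1 lower. Sox2, Six3 and the Bfsp genes are named after their values were seen. The part of epithelial or fibre RNA in the values of the 9 genes was not tested. In such bulk tissue, fewer cells of a type and less RNA per cell cannot be told apart.

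**Figure D2:**
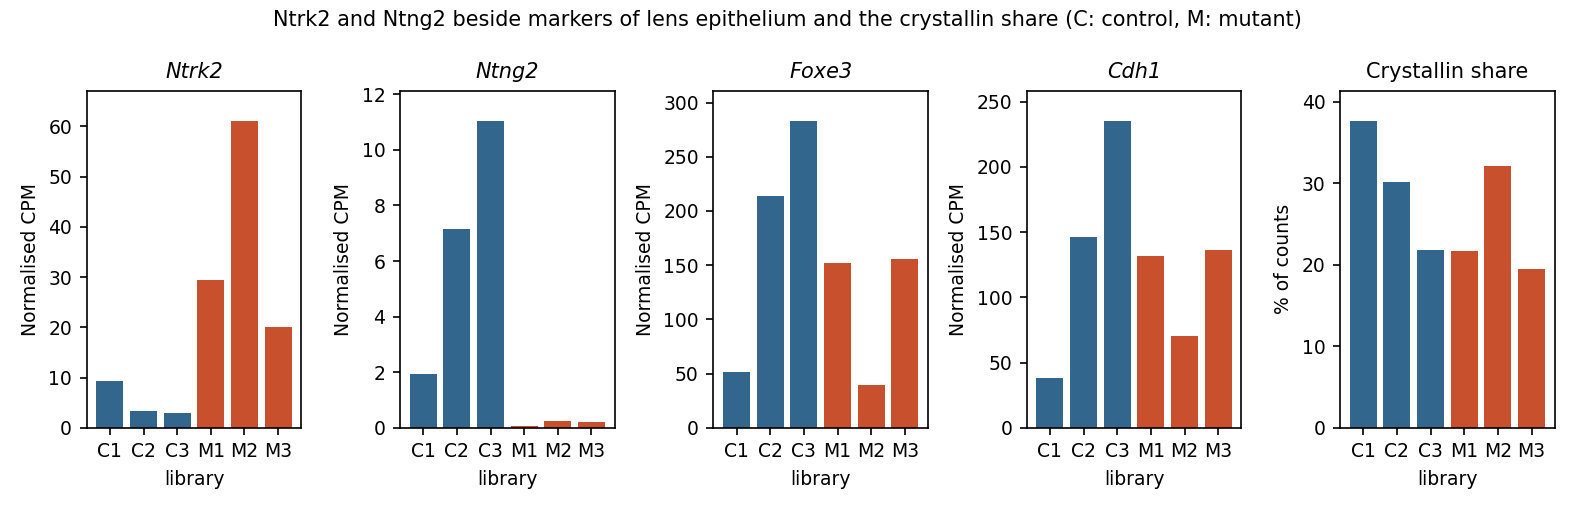
Normalised CPM of Ntrk2, Ntng2 and the epithelial markers Foxe3 and Cdh1, and the share of counts from crystallins, in control libraries (C1 to C3, blue) and mutant libraries (M1 to M3, orange). Within each group the library with most Ntrk2 (C1 and M2) has the least Foxe3 and Cdh1 and the largest crystallin share.

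Cell types known for these receptors left little RNA in the libraries, but several of the 9 genes were themselves low. Control means, not divided by exon length, were 31.5 CPM for Lingo3, 12.45 CPM for Ngfr and 4.73 CPM for Gfra2. Of 12 neuronal marker genes, Snap25 had 0 counts in all libraries, 5 passed the filter and none of these passed in edgeR, DESeq2 or limma voom, with 0 at an unadjusted p under 0.05 in edgeR. Their summed level was 8.504 to 14.4 CPM in control and 6.70 to 14.8 CPM in mutant libraries. The 7 genes of neural crest and Schwann cells, which express Ngfr strongly, summed to 1.72 to 4.13 CPM and 2.18 to 3.79 CPM, with Foxd3 at 0 throughout and Sox10 at or below 0.607 CPM. The 12 markers of mesenchyme around the eye summed to 18.4 to 43.1 CPM in control and 20.0 to 20.2 CPM in mutant libraries. Of the 5 tested, none passed in edgeR or limma voom, 3 had an unadjusted p under 0.05 in edgeR, and over all 12 DESeq2 called Col3a1, Dcn and Twist1, 2 lower and 1 higher. The retinal genes Crx and Six6 were at 0, and the 9 retinal markers summed to 64.0 to 74.7 CPM and 72.5 to 98.4 CPM, nearly all of it from Sox1, which the lens also expresses. The 8 macrophage markers ranged most, from 1.497 to 11.7 CPM in control and from 3.79 to 36.3 CPM in mutant libraries, where mutant libraries 1 and 3 were high and mutant library 2 was within the control range. Of the 7 macrophage markers tested, all lay above 0 (median 2.20 on the log2 scale), and 4 had an unadjusted p under 0.05. None passed in edgeR or DESeq2, and limma voom called 1, Csf1r. The part of RNA from macrophages or any other of these cell types in the values of the 9 genes was not tested.

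**Figure D3:**
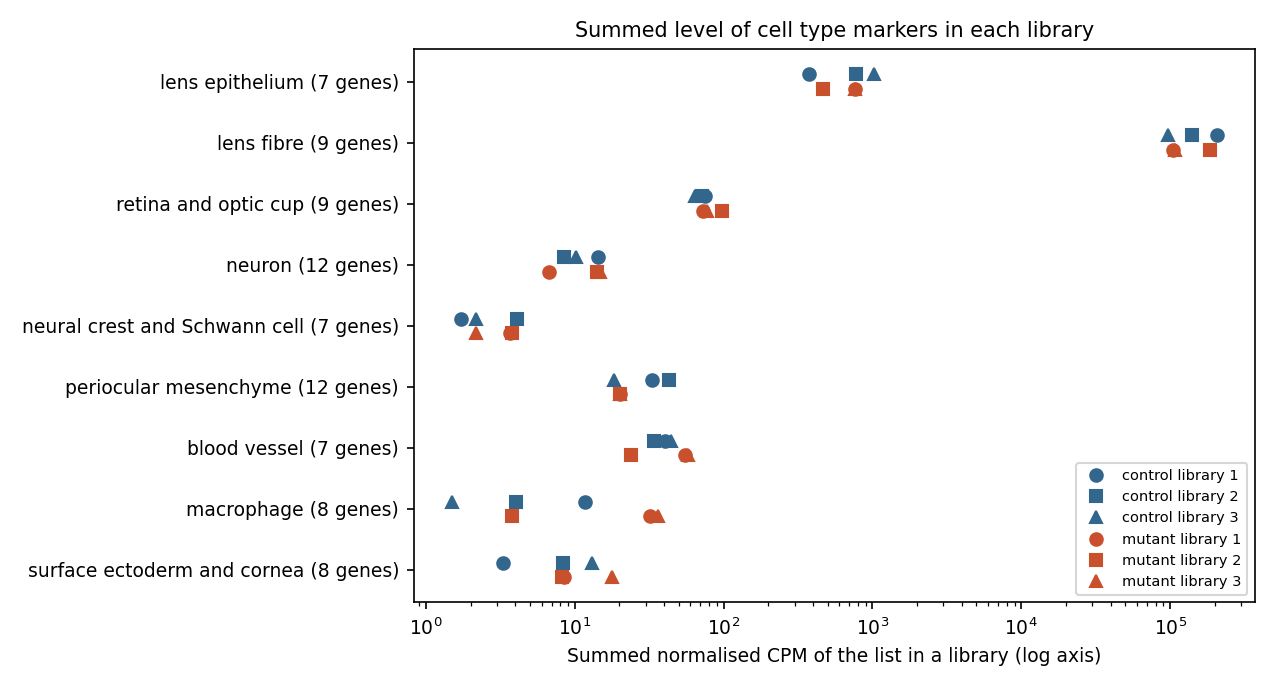
Summed normalised CPM of 9 lists of cell type markers in each library on a log axis, controls in blue and mutants in orange. Neuronal, neural crest and macrophage markers sum to at most 36.3 CPM in any library. Lens fibre markers sum to 97190 CPM or more, most of it from the crystallin gene Cryaa.

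Around the receptors, 9 lists of ligands, partners, effectors and other neuronal adhesion genes held 97 genes, of which 60 were tested. Of these 60, 3 fell and 2 rose in edgeR, or 8.33%, beside 2.22% of all tested genes. The lists were chosen with earlier results of these data known, so nothing is read from the difference between these shares. The genes that fell were Sort1, Ncam1 and Tnfrsf19, and those that rose were Shc3 and Nlgn1. All of them had groups that did not overlap, while 11.3% of all tested genes were lower and 11.4% higher without overlap. The calls came from the same libraries, so this adds nothing to them. Without control library 2 none of the 5 passed, and the share over all genes was then 0.727%.

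Sort1 encodes sortilin, the partner with which p75 binds neurotrophin precursors. It had 61.2, 68.0 and 72.6 CPM in control and 37.6, 33.6 and 32.7 CPM in mutant libraries, and fell by 0.96 ± 0.14 on the log2 scale (SE; edgeR adjusted p = 0.0108). The call was also lost without mutant library 3, and over the leave-out fits the log2 fold change lay between -1.02 and -0.90. The related sorting receptor gene Sorl1 had a log2 fold change of -1.75 ± 0.38 just short of the threshold (with SE; edgeR adjusted p = 0.0557). Sorl1 did pass in DESeq2, in limma voom and in edgeR with no filter (adjusted p = 0.00158, 0.0193 and 0.0482). Of the 5 tested genes of this list, 1 fell and 4 did not pass in edgeR, with a median log2 fold change of -0.55 beside 0.0018 over all tested genes. Nradd, a truncated relative of p75, was among those 4 and had a log2 fold change of 0.93 ± 0.31 (with SE; edgeR adjusted p = 0.184; named after its values were seen).

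Inside the cell, 16 genes of p75 partners and of the enzymes that cleave p75 were tested, and edgeR called none of them, with 4 at an unadjusted p below 0.05. DESeq2 called Ripk2 and Kidins220, and limma voom called Ripk2. In edgeR, Ripk2 passed without control library 1 and Kidins220 without mutant library 2 (adjusted p = 0.0299 and 0.0469). Ripk2, which encodes a kinase that binds the p75 death domain, had a mean of 27.9 CPM ± 7.19 among controls and 13.4 CPM ± 2.39 among mutants (SD, n = 3 each; edgeR adjusted p = 0.0758). Kidins220, which encodes a membrane scaffold shared by p75 and Trk receptors, had means of 65.2 CPM ± 11.4 and 31.5 CPM ± 14.0 (SD, n = 3 each; edgeR adjusted p = 0.171). The median log2 fold change of the list was -0.19. Of 15 Trk adaptors and effectors, 1 rose and 14 did not pass in edgeR, with a median of -0.04, while limma voom also called Ptpn11 and Sh2b2 higher. Of the 15, 9 lay below 0 and 6 above, and 5 had an unadjusted p under 0.05 in edgeR. Shc3, which encodes a mainly neuronal Shc adaptor, rose from 4.19, 2.37 and 2.94 CPM to 10.8, 11.2 and 11.1 CPM, by 1.81 ± 0.30 on the log2 scale (SE; edgeR adjusted p = 0.0196). It no longer passed when control library 2 or 3 or mutant library 1 or 3 was left out, at 1.63 to 1.82. Ptpn11, the gene of the phosphatase SHP2, had a log2 fold change of 0.47 ± 0.14 (with SE; edgeR adjusted p = 0.142, limma voom adjusted p = 0.0449).

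Ligand RNA was scarce in both groups. Of the 4 neurotrophin genes only Bdnf was tested, at 0.299, 2.61 and 4.10 CPM in control and 4.97, 0.825 and 5.40 CPM in mutant libraries. Its groups overlapped, and it was lowest in the libraries with least Foxe3, control library 1 and mutant library 2. Of the 4 GDNF family ligand genes only Nrtn, which encodes neurturin, was tested. It had 1.20, 1.15 and 1.27 CPM in control and 1.32, 1.65 and 1.25 CPM in mutant libraries, or 0.21 ± 0.49 as a log2 difference (SE; edgeR adjusted p = 0.873). Artn had 0 counts in every library and Gdnf had 1 count in all.

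Of the 3 tested partners of the GDNF co-receptors, Ncam1 fell and Ret and Gas1 did not pass. Ncam1, the gene of the adhesion molecule NCAM, had 52.5, 43.2 and 51.8 CPM in control and 25.1, 29.5 and 18.8 CPM in mutant libraries, and fell by 1.01 ± 0.20 on the log2 scale (SE; edgeR adjusted p = 0.0393). Leaving out any library other than mutant library 2 ended this call, with values from -1.10 to -0.85. Ret, the shared kinase of GDNF ligands, had 6.35, 1.46 and 2.61 CPM in control and 1.47, 0.577 and 0.872 CPM in mutant libraries, so that its groups overlapped slightly (edgeR adjusted p = 0.232).

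In the Nogo receptor complex, Tnfrsf19 fell. It encodes TROY, a receptor of the same superfamily as p75 that can take its place beside LINGO1. Levels were 21.0, 22.3 and 39.0 CPM in control and 10.7, 10.4 and 9.54 CPM in mutant libraries, or -1.43 ± 0.27 as a log2 difference (SE; edgeR adjusted p = 0.0346). The adjusted p rose above 0.05 when control library 2 or 3 or mutant library 1 or 3 was left out, with values from -1.56 to -1.09. Of the 5 tested genes of the list, 1 fell and 4 did not pass, with a median log2 fold change of -0.35. Rtn4, the gene of Nogo itself, had a log2 fold change of -0.35 ± 0.13 (with SE; edgeR adjusted p = 0.217). Lingo4 had one of 0.87 ± 0.78 (SE; edgeR adjusted p = 0.622; named after its values were seen), and Lingo2 had counts in 1 library only.

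The netrin-G ligand gene Lrrc4, which encodes the NGL-2 partner of netrin-G2, was detected at 34.2, 24.1 and 20.9 CPM in control and 13.7, 33.8 and 12.5 CPM in mutant libraries. As a log2 difference this was -0.41 ± 0.40 (SE; edgeR adjusted p = 0.664). Ntng1, Lrrc4b and Lrrc4c had 0 counts in all libraries, so of the netrin-G pairs only Ntng2 and Lrrc4 were represented. Among 32 other neuronal adhesion genes 13 were tested, of which 1 rose and 12 did not pass in edgeR, with a median of 0.10. Of these 13, 5 lay below 0 and 8 above, and 6 had an unadjusted p under 0.05 in edgeR. Nlgn1, which encodes the synaptic adhesion protein neuroligin-1, rose from 0.897, 0.425 and 0.388 CPM to 6.14, 7.92 and 5.34 CPM, by 3.51 ± 0.47 on the log2 scale (SE; edgeR adjusted p = 0.0083). This call was lost without control library 2, at 3.34. Nfasc, the neurofascin gene, had a log2 fold change of -1.32 ± 0.41 (with SE; edgeR adjusted p = 0.163).

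**Figure D4:**
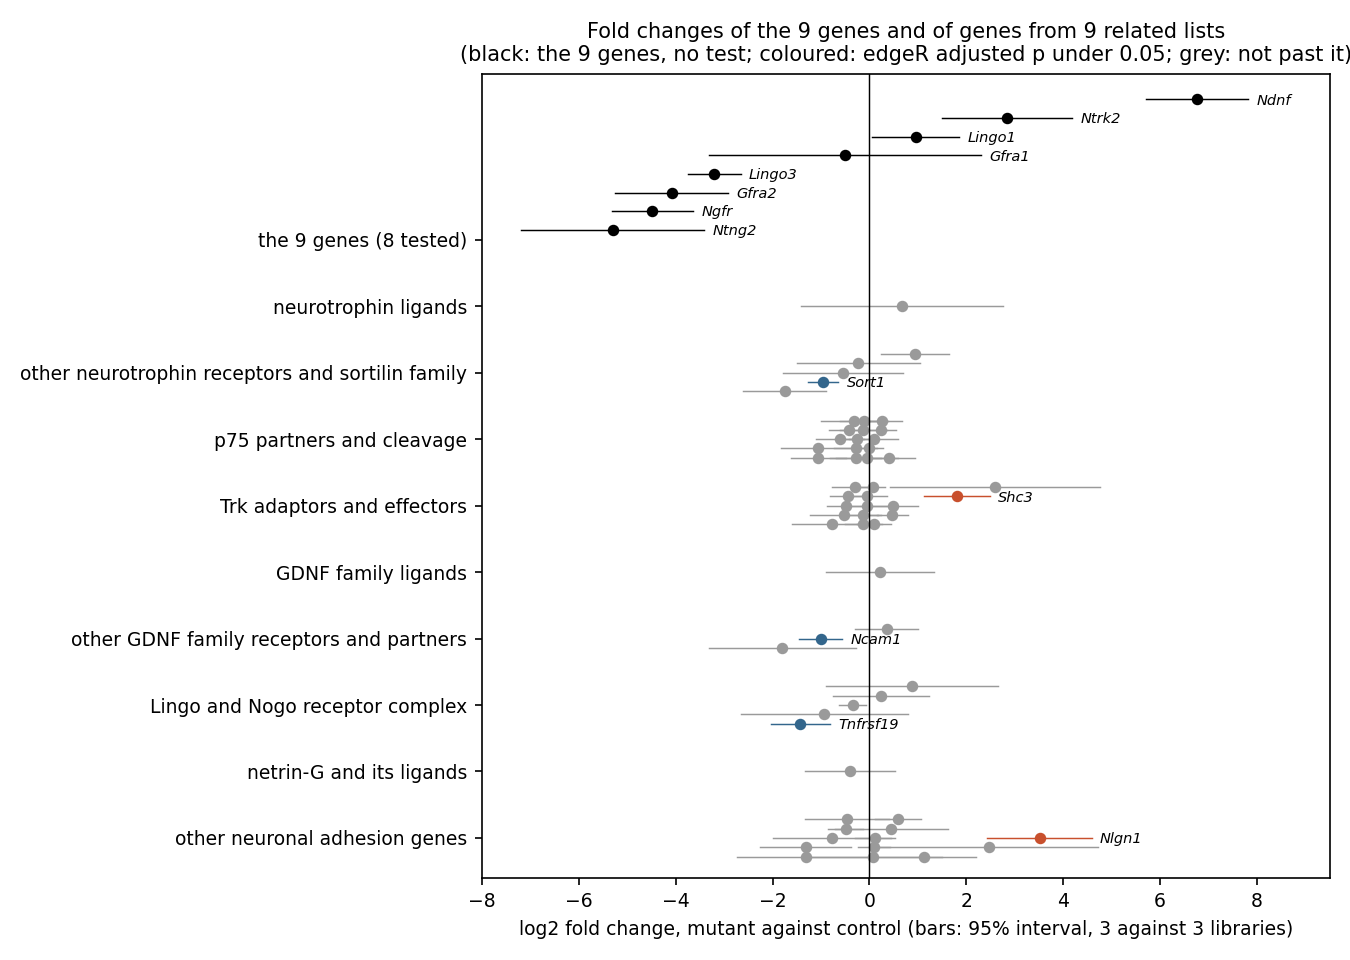
Log2 fold change with 95% interval for the 8 tested members (black) and for tested genes of 9 related lists (coloured past the threshold, grey otherwise). The members reach from -5.30 (Ntng2) to 6.76 (Ndnf), while the called list genes lie between -1.43 (Tnfrsf19) and 3.51 (Nlgn1). Ngfr, Gfra2, Lingo3, Ntng2 and Ndnf were chosen by this contrast, so nothing is read from the wider reach of the members.

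Among 10951 tested genes with a mean of at least 1 CPM and a gene name rather than a clone or model number, the profile nearest to that of Ngfr over the 6 libraries belonged to Lingo3, at a root mean square difference of 0.321 in log2 CPM after each gene was centred on its own mean. Adam12, which encodes a membrane metalloprotease, and Col13a1, which encodes a transmembrane collagen, followed at 0.376 and 0.387. Adam12 had 26.8, 21.1 and 23.5 CPM in control and 1.78, 1.24 and 0.818 CPM in mutant libraries. For Ndnf the nearest were H2-T10, Rprm and Slc35d3, at 0.749, 0.766 and 0.849, none as close as those of Ngfr. H2-T10 belongs to a family of near-identical genes, so its assignment is uncertain. Such likeness over 6 libraries mostly follows the difference between the groups. Ngfr, Lingo3 and Ndnf were chosen by that difference, so nothing is read from the closeness of Ngfr and Lingo3.

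The embryos were of mixed strain, so the neighbourhood of each gene in annotation order was examined. Of the 10 nearest tested genes of each member (5 on each side), none passed the threshold for 8 of the 9 members. Gfra2 had 1 such neighbour, Lpar6, with a log2 fold change of 1.54 ± 0.29, the opposite sign to that of Gfra2 (SE; edgeR adjusted p = 0.0362). Over all placed genes, 19.0% had at least 1 such neighbour. The 9 genes lie on 9 different chromosomes, which does not show whether any of them shares a chromosome with Etv1, Etv4 or Etv5. Distances from the 9 genes to these targeted genes were not examined. Strain differences linked to the targeted alleles were not tested.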

How the data were processed

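Raw counts were deposited for each library and again as 1 series table, keyed by gene symbol, and both held the same whole numbers. The authors' deposited comparison table gives a signal (mean normalized counts), log2 fold changes with standard errors, a test score and p-values. Build mm9 and the tools TopHat, Cufflinks, DESeq and bcl2fastq 1.8.4 come from the submitters' processing notes, which give them no roles. No label names the counter, the annotation or the strand setting. Per the labels' protocols, cDNA was amplified with a SMART-seq kit, without molecular identifiers, so precision from depth covers counting error only.

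Counts were fitted over all genes with edgeR 4.0.16 in R 4.3.3 (filterByExpr with minimum count 10 and minimum total 15, TMM, robust quasi-likelihood F test), which tested 12257 genes. P-values were adjusted over all of them by the Benjamini-Hochberg method with a threshold of 0.05. Standard errors derive from the F statistic, and the 95% intervals are not adjusted. The procedure was tested on simulated counts. The rule for names took all members, the called genes and the 2 of lowest p in each list, Etv1, Etv4 and Etv5, and the 3 profiles nearest to Ngfr and Ndnf (log2 of CPM plus 0.5). Members and lists were chosen with earlier results of these data known. Alternatives were other normalizations and filters, a replicate block, DESeq2 1.42.0, limma 3.58.1 voom and leaving out each library. Protein sequences were not used here. Promoter windows are from RefSeq (GRCm38.p6), another build than the authors', and gene order from the same assembly.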

Additional observations from a re-analysis of the deposited data

How the results depend on the processing

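The 272 genes that changed became 821 in the DESeq2 test and 801 in limma voom, and between 91 and 479 when single libraries were left out (91 without mutant library 3, 479 without mutant library 2). With the replicate number as a block there were 122. Deviations of same-numbered libraries from their group means had correlations across genes of -0.331, -0.183 and 0.246. Differently numbered libraries had values from -0.414 to 0.473. The highest was for control library 1 and mutant library 2, which had the most crystallin RNA of their groups. Such differences can mask a pairing, so these values do not decide whether the numbers pair the libraries. Under the block the list calls for Sort1, Ncam1, Tnfrsf19 and Shc3 were lost and that for Nlgn1 remained. Other normalizations and filters gave 266 to 336 genes. Of the members, Gfra1 turned sign between leave-out fits, from -2.29 to 0.09 (0.0879 without control library 2 and 0.064 without mutant library 3); the cause was not tested. Depth limits Ntrk3, Gfra1, the mutant values of Ngfr, Gfra2 and Ntng2, and the control values of Ndnf, each resting on few counts.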
